A study of Mus musculus with 12 samples.

Results

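The bone morphogenetic protein (BMP) ligands and antagonists examined here were 9 genes chosen by symbol, of 27998 genes in the count matrices. Gdf10, Bmp2, Bmp3 and Bmp4 encode ligands, Nog, Grem1, Fst and Fstl1 encode secreted proteins that bind ligands of this superfamily or modify their signaling, and Bambi encodes a transmembrane pseudoreceptor. All 9 symbols were found in each of 12 single-cell libraries of mouse mammary gland, and the genes were read in fibroblasts by subset and library.

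BMPs are secreted ligands of the transforming growth factor beta superfamily. They assemble type I and type II serine/threonine kinase receptors, which phosphorylate SMAD proteins that then enter the nucleus and switch on targets such as the Id genes. Secreted antagonists bind the ligands before they reach a receptor, and stromal cells of the mammary gland are a known source of both kinds of protein, with BMP4 acting in the mesenchyme of the embryonic mammary bud.

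The libraries came from female C57BL/6J mice aged 43 weeks, with 1 library per group and the number of animals behind a library not given in the sources used here. In 11 groups the ovaries had been depleted with 4-vinylcyclohexene diepoxide (VCD, 160 mg/kg/day for 15 days), which destroys small follicles and models menopause, and the Intact group received no VCD. Of the VCD-treated groups, VCD_Vehicle received oil, VCD_E2 received estradiol (E2, 1 µg per animal per day), VCD_E2_P4 received the same E2 with progesterone (P4, 1 mg per animal per day), each for 1 week, and VCD_E2_ICI received E2 with 5 mg of the estrogen receptor degrader ICI, given once. Polybrominated diphenyl ethers (PBDE), flame retardants that act as endocrine disruptors, were fed at a low dose for 20 weeks (0.05, 0.0028 and 0.0063 mg/kg/day of the congeners 47, 100 and 153) in VCD_Low_PBDE, VCD_Low_E2 and VCD_Low_E2_P4. They were fed at a high dose for 1 week (1, 0.056 and 0.126 mg/kg/day) in VCD_High_PBDE, VCD_High_PBDE_E2 and VCD_High_PBDE_E2_P4, so that dose and duration cannot be told apart. VCD_Vehicle_NormEnv received oil in cages whose plastic could itself have released PBDE. The other groups without PBDE ate matched food containing DMSO.

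The libraries held between 41737881 and 109224969 unique molecular identifiers (UMIs), and 46257 of 58620 barcodes passed the quality filters. Fibroblasts were 31077 cells without a UMI of 6 epithelial, immune, endothelial or pericyte genes. They were divided into 4 gates, each by 8 markers named after a fibroblast cluster of the study: Fib_0 (led by Dpp4 and Pi16, 11280 cells), Fib_1 (Fabp4 and Lpl, 6593 cells), Fib_2 (Tnc and Postn, 3960 cells) and Fib_3 (F3 and Gas6, 3946 cells). A further 5298 fibroblasts fell in no gate. At most 15 barcodes were shared between any 2 libraries. The gates were cut from a score, so they are ranges of cells rather than types. UMIs were summed per gate and library and expressed as CPM, the UMIs of a gene per 1000000 UMIs of that sum.

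The promoters of Gdf10 and Bmp4 are shown because the 2 ligands were highest in different gates, Gdf10 in Fib_3 and Bmp4 in Fib_0, and because both were lower with hormone in Fib_2. Each sequence is the 250 bases before the RefSeq start on GRCm38.p6, for Gdf10 chr14:33923337-33923586 on the plus strand and for Bmp4 chr14:46390670-46390919 on the minus strand, written 5′ to 3′ along the gene. Capitals mark the GC box GGGCGG, searched on both strands.
Gdf10: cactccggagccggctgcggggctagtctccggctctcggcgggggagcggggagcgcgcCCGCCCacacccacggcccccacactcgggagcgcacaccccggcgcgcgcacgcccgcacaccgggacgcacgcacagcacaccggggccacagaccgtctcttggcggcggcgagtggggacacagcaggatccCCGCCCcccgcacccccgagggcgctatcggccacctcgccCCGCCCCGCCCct
Bmp4: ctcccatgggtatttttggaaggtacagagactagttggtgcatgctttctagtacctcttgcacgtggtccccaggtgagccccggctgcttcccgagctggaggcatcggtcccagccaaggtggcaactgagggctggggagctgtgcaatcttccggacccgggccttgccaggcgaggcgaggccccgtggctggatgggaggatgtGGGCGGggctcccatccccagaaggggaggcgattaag
The Gdf10 window was 78.8% G or C and held 4 GC boxes, and the Bmp4 window was 63.2% G or C and held 1. A GC box stood in 32.9% of 27025 promoter windows of the same length. Neither window held the palindromic estrogen response element (in 0.0629% of windows), its repeat unit GGTCA, which the full element contains (34.9%), or the progesterone element ACANNNTGT (5.91%), on either strand. These counts say only which letters the windows hold. Of the 9 genes, 4 had a window in the RefSeq table.

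In GRCm38 coordinates, Gdf10 lies at chr14:33923587-33937983 and Bmp4 at chr14:46383520-46390669, with the predicted genes Gm15217 and Gm15222 overlapping Bmp4 on the other strand. Bmp2 lies at chr2:133552159-133562885, Bmp3 at chr5:98854415-98884396, Nog at chr11:89300638-89302332, Fst at chr13:114452290-114458951, where Gm47040 overlaps on the other strand, and Fstl1 at chr16:37776873-37836514. None of the 9 genes overlapped another annotated gene on its own strand.

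The ligands were divided among the gates. Gdf10, also known as Bmp3b, was highest in Fib_3, whereas Bmp2, Bmp3 and Bmp4 were highest in Fib_0 in each of the 12 libraries. Differences are given on the log2 scale between a gate and the mean of the other 3 gates within libraries (edgeR quasi-likelihood test with Benjamini-Hochberg adjustment over all genes). The gates were cut from other genes of the same cells, and most genes differed in this way: 72.8% of genes passed an adjusted p of 0.05 in Fib_0, 60.8% in Fib_1, 62% in Fib_2 and 51.4% in Fib_3. Against this background 20 of 28 tests of the members passed, 7 of 7 in Fib_0, 6 of 7 in Fib_1, 3 of 7 in Fib_2 and 4 of 7 in Fib_3. The differences of a gene over the gates cancel by construction, so these tests are not separate.

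Gdf10 ranged from 277 to 636 CPM in Fib_3 (median 395, n = 12 libraries). In Fib_2 it ranged from 14.0 to 86.0 CPM, in Fib_1 from 14.2 to 63.2 CPM and in Fib_0 from 4.06 to 18.9 CPM. Fib_3 stood above every other gate with no overlap, Fib_0 was lowest in 12 of 12 libraries, and Fib_1 and Fib_2 overlapped. The study had itself used Gdf10 to describe Fib_3 from 5 of these libraries, so its difference of 4.24 (SE 0.14) in Fib_3 is a description. At least 1 Gdf10 UMI was found in 71.1% of Fib_3 cells (59.4% after thinning each cell to 5000 UMIs) and in 1.25% of 6541 immune-like cells, named from 6 markers (0.672% after thinning). Thinning left out 568 and 1926 shallower cells, and median UMIs per cell were 13713.5 in Fib_3 and 7622 in immune-like cells.

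Bmp3, a ligand that opposes the osteogenic BMPs, was close to restricted to Fib_0 among fibroblasts. Its level in Fib_0 ranged from 30.7 to 104 CPM (median 41.4, n = 12), and did not exceed 1.81 CPM in Fib_1, 1.1 CPM in Fib_2 or 4.28 CPM in Fib_3. The ranges of Fib_0 and the other gates lay far apart, and the difference in Fib_0 was 5.74 (SE 0.14, edgeR adjusted p = 1.54e-30). Of the 10952 Bmp3 UMIs in fibroblasts, 10527 were in Fib_0, where 38.5% of cells had at least 1 (19.5% after thinning, against 0.26% of immune-like cells). The summed level of 6 luminal epithelial markers was also higher in Fib_0 (84.2 to 184 CPM, with 1 to 3 of the 6 at 0 in a library) than in the other gates (3.71 to 23.3 CPM). In Fib_0 it was made up mostly of Krt19 (91.8 CPM over all libraries) and Cldn3 (27.1 CPM), while Krt8 (1.04 CPM) and Krt18 (0.964 CPM) stood at 0.867 to 1.15 CPM in the other gates and Epcam was at 0 by selection. Endothelial markers ranged from 6.02 to 29.3 CPM in Fib_0 and from 0.481 to 21.6 CPM in the others. Outside fibroblasts, Bmp3 stood at 27.1 CPM in 175 luminal-like epithelial cells and 0.589 CPM in immune-like cells. Luminal-like cells were named partly from Krt19 and Cldn3, before the selection against other cell types and without removal of doublets. The luminal-like value therefore does not tell luminal expression from Fib_0 RNA.

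Bmp2, an osteogenic ligand, ranged from 45.1 to 118 CPM in Fib_0 (median 76.0, n = 12). The other gates overlapped one another, with 18.2 to 35 CPM in Fib_1, 3.80 to 53.2 CPM in Fib_2 and 9.36 to 40.1 CPM in Fib_3. Fib_0 was higher by 1.59 (SE 0.13, edgeR adjusted p = 1.04e-13) and the difference in Fib_2 was -0.996 (SE 0.17, edgeR adjusted p = 2.75e-06). Bmp2 reached 16.5 CPM in immune-like cells, with a UMI in 6.77% of them against 46.6% of Fib_0 cells, whose median depth was 18704.5 UMIs. After thinning, which kept 10655 Fib_0 cells, the shares were 5.53% and 24.6%, against 1.12% of 89 luminal-like epithelial cells.

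Bmp4, the ligand of the mammary mesenchyme named above, ranged from 18.4 to 46.6 CPM in Fib_0 (median 24.6, n = 12), 7.49 to 26.5 CPM in Fib_3, 2.32 to 35.9 CPM in Fib_2 and 1.12 to 13.3 CPM in Fib_1. Fib_0 was the highest and Fib_1 the lowest gate in 12 of 12 libraries, although the ranges over libraries overlapped. The difference was 1.41 (SE 0.12, edgeR adjusted p = 2.06e-13) in Fib_0 and -1.61 (SE 0.15, adjusted p = 1.2e-11) in Fib_1. Immune-like cells held 0.374 CPM of Bmp4.

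The antagonists differed among themselves, and Fstl1, like Bmp2, Bmp3 and Bmp4, was highest in Fib_0 in most libraries. Fst encodes follistatin, which binds activins tightly and some BMPs more weakly, and ranged from 258 to 512 CPM in Fib_1, 252 to 461 CPM in Fib_3, 166 to 298 CPM in Fib_0 and 85.4 to 259 CPM in Fib_2. Fib_1 was highest in 9 of 12 libraries and Fib_2 lowest in 9 of 12, and neighbouring gates overlapped. Fst was higher in Fib_1 by 0.73 (SE 0.10, edgeR adjusted p = 4.16e-08) and in Fib_3 by 0.61 (SE 0.10, adjusted p = 3.21e-06), and its difference in Fib_2 was -1.09 (SE 0.11, adjusted p = 8.84e-11).

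Fstl1, a secreted follistatin-like glycoprotein, ranged from 1757 to 2704 CPM in Fib_0 and from 1022 to 2492 CPM in Fib_2, with 1060 to 1496 CPM in Fib_1 and 860.1 to 1459 CPM in Fib_3. Fib_0 was highest in 9 of 12 libraries and Fib_2 in the other 3. The difference was 0.72 (SE 0.08, edgeR adjusted p = 6.87e-10) in Fib_0 and -0.41 (SE 0.09, adjusted p = 0.000162) in Fib_3. At least 1 Fstl1 UMI was present in 99.9% of Fib_0 cells and 23.1% of immune-like cells, where the level was 30.1 CPM. After thinning these shares were 99.95% and 12.7%.

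Bambi resembles a type I receptor without a kinase domain and dampens signaling from the receptor complex. It was lowest in Fib_1 in 10 of 12 libraries (8.92 to 17.9 CPM), and the other gates overlapped, with 15.4 to 52.7 CPM in Fib_0, 9.05 to 52.0 CPM in Fib_2 and 16.5 to 40.3 CPM in Fib_3. The difference in Fib_1 was -1.07 (SE 0.15, edgeR adjusted p = 7.23e-08). It was 0.52 (SE 0.13, edgeR adjusted p = 0.000354) in Fib_0 and 0.50 (SE 0.14, adjusted p = 0.00332) in Fib_3. In Fib_2 it did not pass (0.05, SE 0.15, edgeR adjusted p = 0.781). Bambi UMIs were also found in immune-like cells, at 22.6 CPM, and the share of cells with a UMI after thinning was 8.41% in immune-like cells, 10.7% in Fib_0 and 4.49% in Fib_1. Free RNA was not estimated and doublets were not removed, so these shares do not tell expression from background.

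Nog and Grem1, the antagonists noggin and gremlin, were scarce. Nog gave 256 UMIs in 175 fibroblasts, 117 of them in 65 cells of Fib_3, where its level over all libraries was 2.07 CPM and where it was highest in 10 of 12 libraries. Grem1 gave 26 UMIs in 9 of 31077 fibroblasts, 18 of them in 7 cells of Fib_0, and none in Fib_1 or Fib_2. In the fit reported, Grem1 passed the filter on low counts in no comparison between treatments, and Nog only in Fib_3 and in the sum of all fibroblasts.

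**Figure D1:**
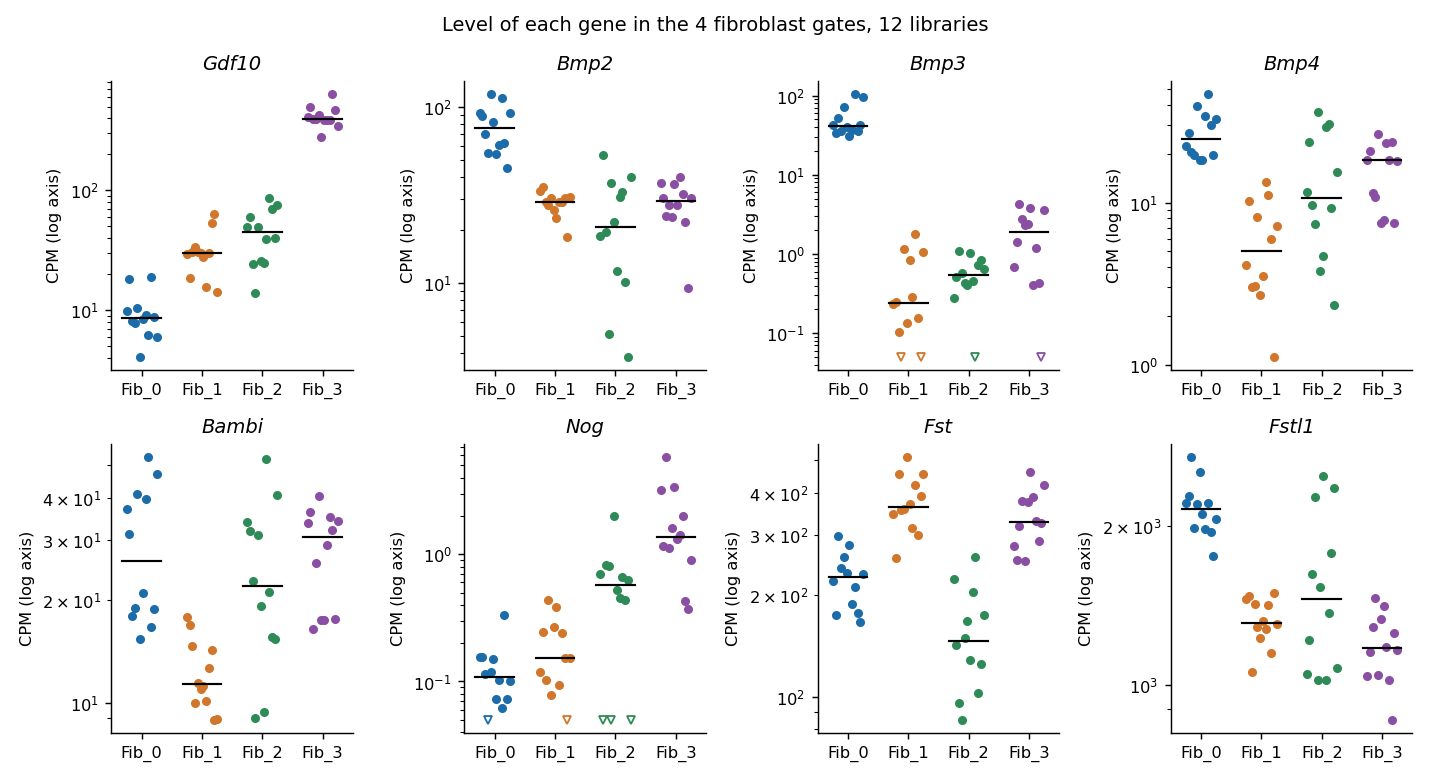
Level of each gene in CPM on a log axis in the 4 fibroblast gates, with 1 point per library (12 libraries), black bars at the median and open triangles at the foot for libraries with 0 UMIs; Grem1 is left out. Gdf10 points in Fib_3 (277 to 636 CPM) and Bmp3 points in Fib_0 (30.7 to 104 CPM) lie above those of every other gate.

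Whether ovarian hormone changed these genes was tested in 9 libraries, 3 without hormone (VCD_Vehicle, VCD_Low_PBDE, VCD_High_PBDE) and 6 with E2 or E2 and P4, in an additive edgeR model with PBDE level as the other factor and 4 residual degrees of freedom. Because each group is 1 library, p-values measure the spread left after the hormone and PBDE terms, over libraries that may share animals, cages or preparation. A lower CPM in a gate may come from fewer cells with the transcript, from fewer transcripts per cell or from more UMIs of other genes per cell. These were not separated, so falls and rises with hormone are stated for CPM only. In Fib_2, 5 of 6 members tested fell and 1 rose with hormone, where 33.7% of all genes passed, 16.5% lower and 17.2% higher. In Fib_0, 3 of 7 fell (10.7% of all genes passed, 5.14% lower), in Fib_1, 1 of 7 fell (9.11% passed, 3.98% lower), and in Fib_3, 0 of 8 passed (2.82%). The CPM of the 3 libraries without hormone did not overlap with those of the 6 with hormone for 3 of 6 members in Fib_2 (28.2% of all genes tested), 2 of 7 in Fib_0 (13.6%), 1 of 7 in Fib_1 (11.5%) and 1 of 8 in Fib_3 (9.02%). The median log2 difference of the members tested was -1.13 in Fib_2 and -0.78 in Fib_0, against -0.02 and 0.00 for all genes tested. It was -0.26 in Fib_1 and 0.12 in Fib_3, against -0.01 and -0.01 for all genes tested. In Fib_3, 4 of 8 had an unadjusted p under 0.05 and DESeq2 called 2.

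In Fib_2, Bmp2 stood at 53.2, 37.2 and 33.1 CPM in VCD_Vehicle, VCD_Low_PBDE and VCD_High_PBDE. It stood at 19.5, 22.2 and 10.1 CPM in the corresponding libraries with E2, and at 5.11, 11.7 and 3.80 CPM in those with E2 and P4. All 6 hormone-treated libraries lay below all 3 without hormone, and those with P4 were the lowest at no PBDE, low PBDE and high PBDE alike. Bmp2 fell by 2.00 on the log2 scale (SE 0.22, edgeR adjusted p = 8.40e-05). In libraries outside the fit, Bmp2 was 40.3 CPM in VCD_E2_ICI, 31.0 CPM in VCD_Vehicle_NormEnv and 18.6 CPM in Intact, so the library with E2 and the receptor degrader lay among those without hormone.

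Bmp4 in Fib_2 stood at 23.7, 35.9 and 30.4 CPM in VCD_Vehicle, VCD_Low_PBDE and VCD_High_PBDE. With E2 it stood at 9.61, 3.80 and 9.26 CPM at no, low and high PBDE, and with E2 and P4 at 7.43, 4.68 and 2.32 CPM. The groups did not overlap. Bmp4 fell by 2.32 (SE 0.30, edgeR adjusted p = 0.000219). It was 15.3 CPM in VCD_E2_ICI, 11.7 CPM in Intact and 29.2 CPM in VCD_Vehicle_NormEnv, the first pair lying between the groups.

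Gdf10 in Fib_2 stood at 60.0, 49.9 and 86.0 CPM without hormone at no, low and high PBDE. With E2 it stood at 24.2, 25.6 and 70.6 CPM, and with E2 and P4 at 14.0, 24.9 and 39.9 CPM. Groups overlapped through VCD_High_PBDE_E2, but at each PBDE level both hormone-treated libraries lay below the one without. Outside the fit, VCD_E2_ICI was at 75.8 CPM and Intact at 49.7 CPM, and VCD_Vehicle_NormEnv, without hormone, was at 39.6 CPM, below all 3 untreated libraries of the fit and inside the hormone-treated range. Gdf10 fell by 1.19 (SE 0.18, edgeR adjusted p = 0.000514). The calls for Bmp2, Bmp4 and Gdf10 in Fib_2 were kept under every alternative run, with ranges of -2.66 to -1.34, -2.80 to -1.89 and -1.58 to -0.88.

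Among the antagonists in Fib_2, Fstl1 moved the other way. It stood at 1218, 1025 and 1372 CPM without hormone, at 1620, 1535 and 1777 CPM with E2, and at 2267, 2492 and 2360 CPM with E2 and P4, each at no, low and high PBDE. The 3 treatments did not overlap with one another. Fstl1 rose by 0.66 (SE 0.10, edgeR adjusted p = 0.000452), a call also kept under every alternative (0.40 to 0.93), and VCD_E2_ICI (1076 CPM), Intact (1052 CPM) and VCD_Vehicle_NormEnv (1022 CPM) lay in or just below the range without hormone.

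Bambi in Fib_2 stood at 31.9, 31.1 and 21.2 CPM without hormone, 22.8, 19.2 and 15.6 CPM with E2, and 9.05, 9.37 and 15.4 CPM with E2 and P4. The groups overlapped by 1 library on each side, and VCD_E2_ICI (40.6 CPM), Intact (34.0 CPM) and VCD_Vehicle_NormEnv (52.0 CPM) lay above all 9. Bambi fell by 1.07 (SE 0.20, edgeR adjusted p = 0.00233). With E2 alone against no hormone its difference was -0.67 (adjusted p = 0.0689).

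Fst in Fib_2 stood at 142, 149 and 259 CPM without hormone, 95.8, 167 and 102 CPM with E2, and 85.4, 128 and 125 CPM with E2 and P4. The groups overlapped, and VCD_High_PBDE stood apart from the other libraries without hormone. VCD_E2_ICI (174 CPM), VCD_Vehicle_NormEnv (204 CPM) and Intact (224 CPM) lay above the hormone-treated libraries. Fst fell by 0.69 (SE 0.18, edgeR adjusted p = 0.0124), but the call was lost without VCD_High_PBDE (-0.39, adjusted p = 0.106), without VCD_Vehicle (-0.68, adjusted p = 0.0569) and with E2 alone (-0.63, adjusted p = 0.0595).

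**Figure D2:**
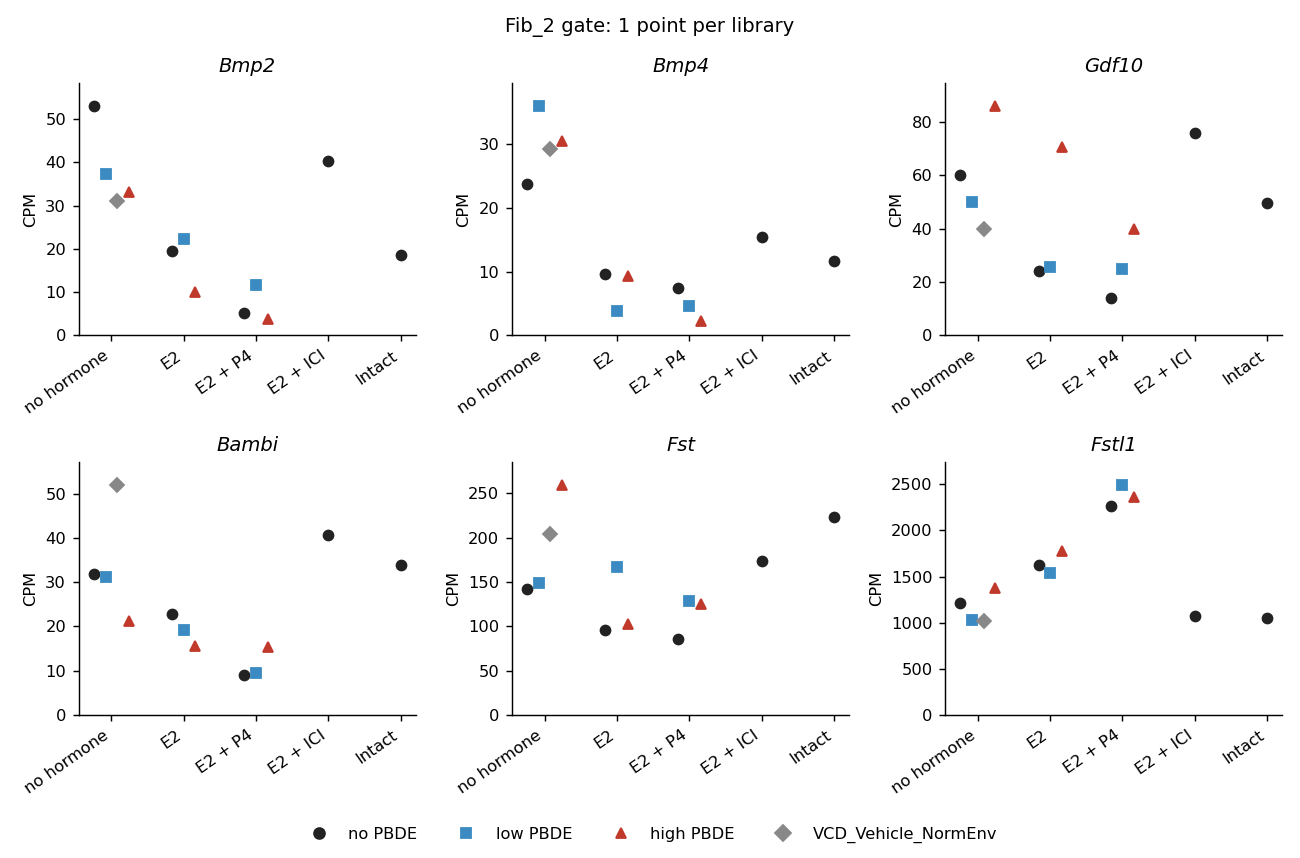
Level in CPM of the 6 genes tested in the Fib_2 gate, with 1 point per library, grouped by hormone treatment and marked by PBDE exposure. The 6 libraries with E2 or E2 and P4 lie below the 3 of the fit without hormone for Bmp2 and Bmp4 and above them for Fstl1, and overlap with them for Gdf10, Bambi and Fst.

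Other measures moved with hormone in Fib_2. The summed level of 8 stress genes of cell dissociation (Fos, Fosb, Jun, Junb, Egr1, Atf3, Hspa1a and Hspa1b) was 18026, 21957 and 25947 CPM without hormone and 7331 to 13434 CPM with it, with none of the 8 at 0. The summed level of the 8 Fib_2 markers was 4029 to 4342 CPM without hormone and 5558 to 11823 CPM with it, that of the 8 Fib_1 markers 2741 to 2983 CPM and 3627 to 4270 CPM, that of the 8 Fib_3 markers, the gate where Gdf10 is highest, 1526 to 1856 CPM and 986 to 1367 CPM, and that of 6 basal epithelial markers 1.98 to 2.83 CPM and 11.8 to 33.3 CPM, with 2 to 4 of the 6 at 0. That of 6 Schwann cell markers was 41.1 to 50.3 CPM without hormone and 22.0 to 31.7 CPM with it. Median UMIs per Fib_2 cell were 8670 to 10242 without hormone and 16467 to 27414 with it. Immune markers (16.1 to 54.5 CPM) and endothelial markers (3.80 to 9.92 CPM) overlapped between the groups over the 9 libraries, and adipocyte markers did not exceed 0.928 CPM.

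When only Fib_2 cells with a low stress score were summed, a choice made once the stress values had been seen, the differences were -1.95 for Bmp2 (edgeR adjusted p = 0.00107), -2.04 for Bmp4 (0.0147), -1.58 for Gdf10 (2.84e-05) and 0.50 for Fstl1 (0.00658). The calls were lost for Bambi (-0.61, edgeR adjusted p = 0.109) and Fst (-0.07, adjusted p = 0.848). The low score kept 243, 104 and 31 Fib_2 cells without hormone at no, low and high PBDE (41.26%, 25.43% and 21.53%). With hormone it kept 85 to 316 cells (44.97% to 70.67%). Whether these smaller and unequal cell numbers account for the lost calls was not tested. The share of all genes passing in these cells is not given here, so whether the losses are particular to these genes cannot be told. The part of the markers, the basal and Schwann cell genes and the depth per cell in these results was not tested.

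**Figure D3:**
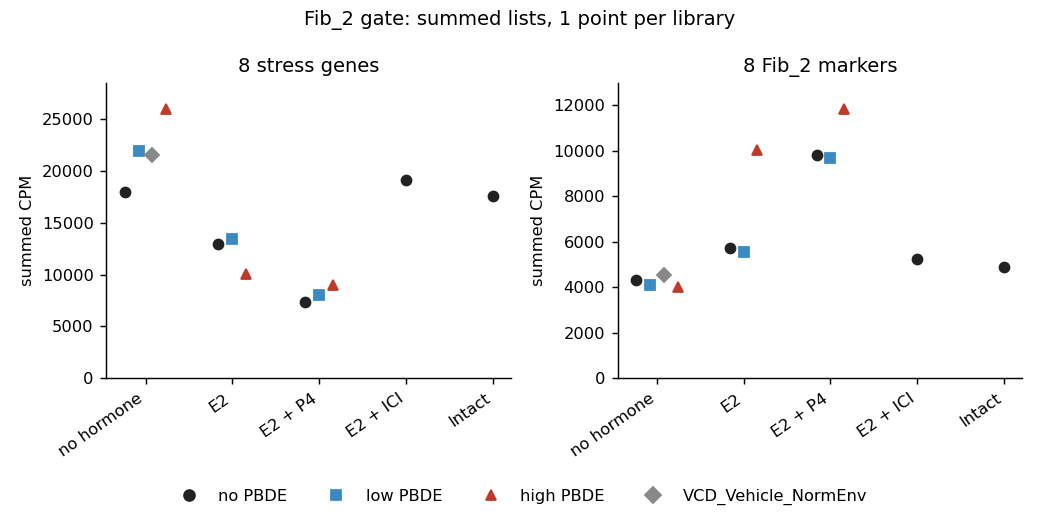
Summed level in CPM of the 8 stress genes (left) and the 8 Fib_2 markers (right) in the Fib_2 gate, with 1 point per library by hormone treatment and PBDE exposure. Stress genes lie at 18026 to 25947 CPM in the libraries of the fit without hormone and at 7331 to 13434 CPM with hormone, and the markers at 4029 to 4342 CPM and 5558 to 11823 CPM.

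In Fib_0, Bmp2 stood at 88.7, 118 and 112 CPM without hormone at no, low and high PBDE, 69.9, 82.2 and 62.2 CPM with E2, and 54.7, 53.9 and 45.1 CPM with E2 and P4. The 3 treatments did not overlap with one another. Bmp2 fell by 0.83 (SE 0.11, edgeR adjusted p = 0.00552). VCD_E2_ICI (93.0 CPM) and Intact (92.3 CPM) lay among the libraries without hormone, whereas VCD_Vehicle_NormEnv (60.8 CPM) lay among those with it.

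Bambi in Fib_0 stood at 31.2, 41.0 and 52.7 CPM without hormone, 18.0, 15.4 and 16.6 CPM with E2, and 19.0, 21 and 18.8 CPM with E2 and P4. The groups did not overlap, and the libraries with E2 alone were the lowest. Bambi fell by 1.2 (SE 0.13, edgeR adjusted p = 0.00408), and VCD_E2_ICI, VCD_Vehicle_NormEnv and Intact lay at 47.0, 39.8 and 37.2 CPM, above all 6 hormone-treated libraries.

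Bmp4 in Fib_0 stood at 26.8, 39.5 and 46.6 CPM without hormone, 20.5, 18.4 and 30.0 CPM with E2, and 19.7, 18.4 and 19.6 CPM with E2 and P4. The groups overlapped only through VCD_Vehicle and VCD_High_PBDE_E2, and VCD_E2_ICI (32.6 CPM) and VCD_Vehicle_NormEnv (34.1 CPM) lay above the hormone-treated libraries while Intact (22.3 CPM) lay among them. Bmp4 fell by 0.85 (SE 0.15, edgeR adjusted p = 0.0141), and the call was lost without VCD_Low_PBDE (-0.67, adjusted p = 0.094), without VCD_High_PBDE (-0.81, adjusted p = 0.0527) or without VCD_Low_E2_P4 (-0.83, adjusted p = 0.0504).

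Bmp3 in Fib_0 stood at 33.4, 71.4 and 104 CPM without hormone at no, low and high PBDE, and at 30.7 to 52.4 CPM in the 6 libraries with hormone. Outside the fit it stood at 96.0 CPM in VCD_E2_ICI, 36.3 CPM in VCD_Vehicle_NormEnv and 42.1 CPM in Intact. VCD_E2_ICI differed from VCD_High_PBDE in E2 and ICI as well as in PBDE, so their values are not a matched comparison. The direction of Bmp3 with hormone differed by PBDE level. Relative to the library without hormone, log2 ratios were 0.65 with E2 and 0.11 with E2 and P4 at no PBDE. They were -0.81 and -1.22 at low PBDE, and -1.56 and -1.31 at high PBDE. A fit with a hormone-by-PBDE term and 3 residual degrees of freedom, added once these values had been seen, had 1 library without hormone at each PBDE level, so PBDE and that library cannot be told apart, and its estimates are a description of a difference already seen. It put the hormone effect on Bmp3 lower than at no PBDE by -1.48 (SE 0.33, edgeR adjusted p = 0.99997) at low PBDE and by -1.83 (SE 0.33, adjusted p = 0.325) at high PBDE. In edgeR 0% of genes passed at either level, with 504 and 702 of 12915 at an unadjusted p under 0.05, among them 3 and 4 of 7 members, Bmp3 included. Gdf10 was among the 4 and differed the other way at high PBDE (2.33, SE 0.72, adjusted p = 0.819). It stood at 18.2, 10.5 and 6.15 CPM without hormone at no, low and high PBDE, with log2 ratios of -1.18 with E2 and -1.23 with E2 and P4 at no PBDE, -1.37 and -0.31 at low PBDE, and 1.62 and 0.52 at high PBDE. DESeq2 called Bmp3 at high PBDE (adjusted p = 0.00364, where 0.321% of genes passed) and not at low PBDE (0.0865), and did not call Gdf10 at high PBDE (0.351). The additive estimate was -0.78 (SE 0.29, edgeR adjusted p = 0.122), and it was -1.24 (adjusted p = 0.011) without VCD_Vehicle and -0.43 without VCD_High_PBDE.

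The summed stress genes in Fib_0 were 9121 to 9914 CPM without hormone and 8053 to 10351 CPM with it, so the groups overlapped there.

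**Figure D4:**
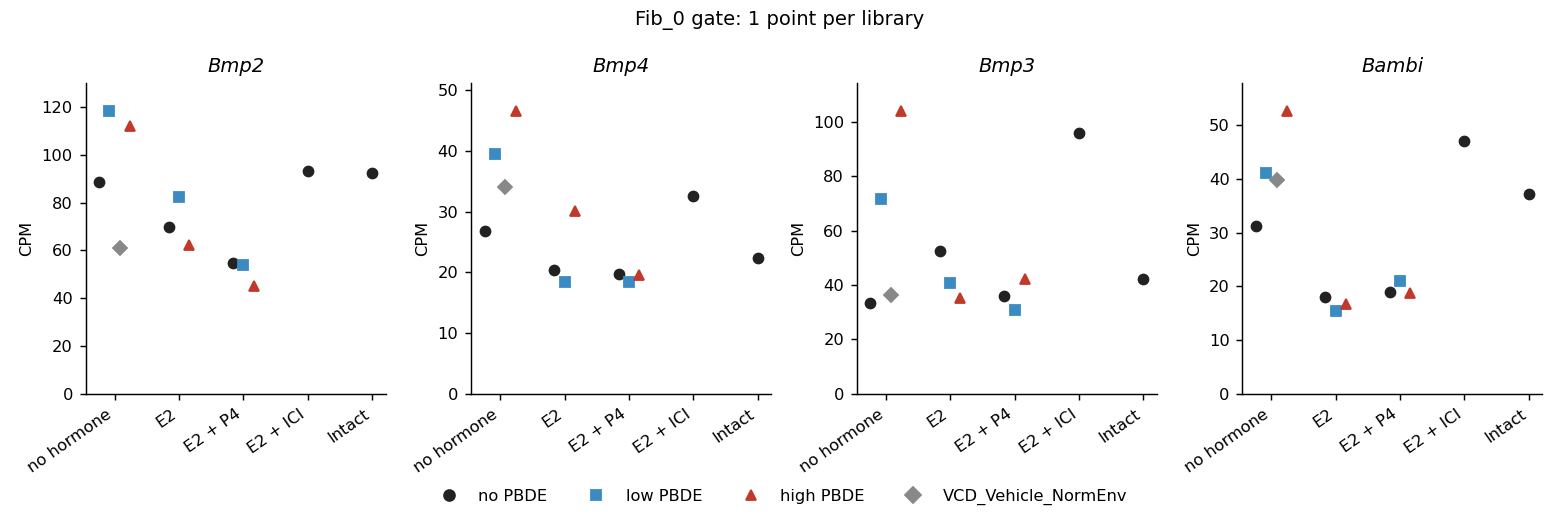
Level in CPM of Bmp2, Bmp4, Bmp3 and Bambi in the Fib_0 gate, with 1 point per library, grouped by hormone treatment and marked by PBDE exposure. The hormone-treated libraries lie below those of the fit without hormone for Bmp2 and Bambi, and overlap with them for Bmp4 and Bmp3.

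In Fib_1, Bmp4 ranged from 8.11 to 11.2 CPM in the 3 libraries without hormone and from 1.12 to 6.00 CPM in the 6 with it. The lowest value, in VCD_High_PBDE_E2_P4, came from 133 cells with 2690538 UMIs of all genes, so it rests on few Bmp4 UMIs. The groups did not overlap, and VCD_E2_ICI (7.13 CPM) lay between them, VCD_Vehicle_NormEnv (13.3 CPM) above both and Intact (4.12 CPM) among those with hormone. Bmp4 fell by 1.55 (SE 0.24, edgeR adjusted p = 0.00481), with -1.40 (adjusted p = 0.0585) in cells of low stress score. Those sums held 58 to 338 cells per library of the fit. In Fib_1 the stress genes also moved with hormone, at 21877 to 29353 CPM without it and 13776 to 19769 CPM with it, as did the Fib_1 markers (9124 to 10374 CPM and 11057 to 14951 CPM) and the Fib_2 markers (996 to 1106 CPM and 1197 to 4283 CPM), none of them overlapping and none with a gene at 0. Adipocyte markers did not overlap either but did not exceed 1.24 CPM. The part of the markers in the Bmp4 result was not tested. The values for Bmp2 (-0.33, adjusted p = 0.0901), Gdf10 (0.48, adjusted p = 0.124), Bambi (-0.26, adjusted p = 0.255), Fst (0.16, adjusted p = 0.596) and Fstl1 (-0.17, adjusted p = 0.221) did not pass. Leaving out VCD_Low_PBDE brought Gdf10 past the threshold (0.85, adjusted p = 0.00884), and Bmp2 passed for E2 and P4 against no hormone (-0.47, adjusted p = 0.0404) but not for E2 alone (-0.18, adjusted p = 0.517). Bmp3, under 2 CPM in every library of this gate, had the largest estimate there and did not pass (-2.07, SE 0.65, adjusted p = 0.0765).

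In Fib_3, the gate where Gdf10 is high, Gdf10 ranged from 389 to 498 CPM without hormone and from 277 to 636 CPM with it. The hormone-treated libraries surrounded the others, and the difference was -0.04 (SE 0.18, edgeR adjusted p = 0.941). Bambi ranged from 35 to 40.3 CPM without hormone and from 16.5 to 32.1 CPM with it, a gap between groups that did not pass the test (-0.81, SE 0.20, adjusted p = 0.0603), although it passed without VCD_High_PBDE_E2 (-0.99, adjusted p = 0.0103) or without VCD_E2_P4 (-0.97, adjusted p = 0.0483). Bmp4 ranged from 18.3 to 26.5 CPM and from 7.49 to 23.5 CPM (-1.04, SE 0.28, adjusted p = 0.0764), and passed without VCD_High_PBDE_E2 (-1.31, adjusted p = 0.00867). Fst (0.41, adjusted p = 0.123) also passed without VCD_High_PBDE (0.63, adjusted p = 0.0317). Bmp2 (-0.13, adjusted p = 0.817), Fstl1 (0.28, adjusted p = 0.184), Bmp3 (0.55, adjusted p = 0.585) and Nog (0.28, adjusted p = 0.816) did not pass. Nog ranged from 0.374 to 5.83 CPM in Fib_3 over the 12 libraries. In this gate the 6 erythrocyte markers (8.64 to 20.3 CPM without hormone and 29.9 to 1575 CPM with it), the 6 immune markers (11.5 to 18.5 CPM and 22.7 to 117 CPM) and the 6 pericyte and smooth muscle markers (15.8 to 17.6 CPM and 5.62 to 15.0 CPM) did not overlap between the groups, with 0 to 2, 2, and 1 to 2 genes at 0.

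**Figure D5:**
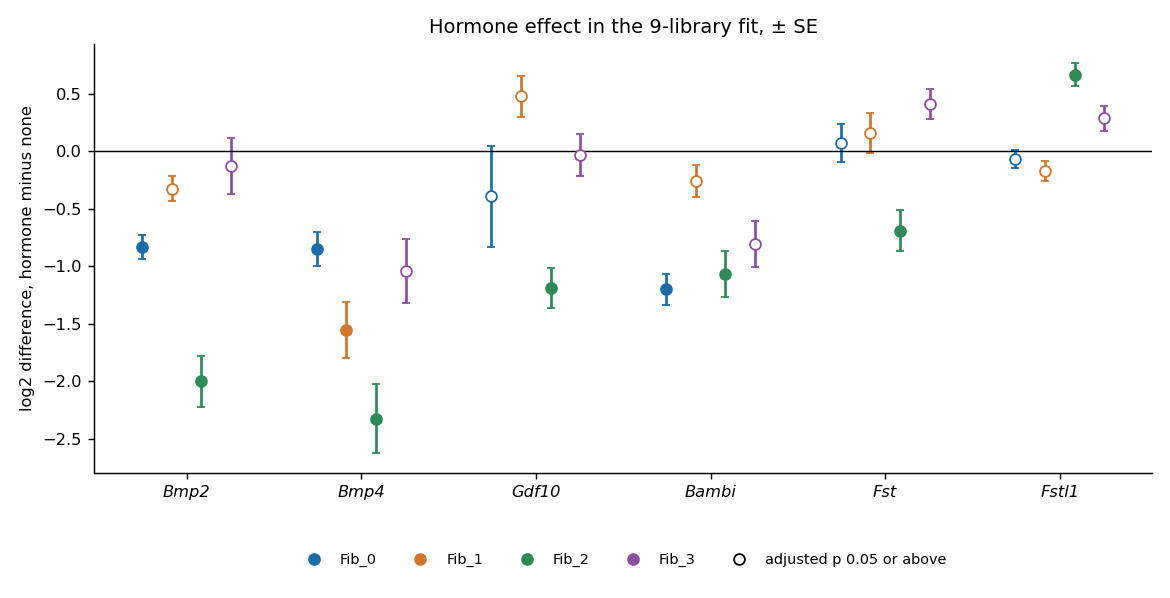
Log2 difference between hormone-treated and untreated libraries in the 9-library edgeR fit for 6 genes in each gate, with bars of 1 SE and filled points for an adjusted p under 0.05. All 6 points of the Fib_2 gate are filled, at -2.32 to -0.69 for the 5 genes that fell and 0.66 for Fstl1, and no Fib_3 point is filled.

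With all fibroblasts of a library summed, gated or not, Bambi fell by 0.99 (SE 0.09, edgeR adjusted p = 0.00221), Bmp2 by 0.87 (SE 0.10, adjusted p = 0.00399) and Bmp4 by 1.13 (SE 0.14, adjusted p = 0.00447), where 18.5% of all genes passed. Bambi ranged from 25.4 to 35.9 CPM without hormone and from 14.3 to 17.3 CPM with it in these sums, Bmp2 from 56.3 to 71.5 CPM and from 27.9 to 50.4 CPM, and Bmp4 from 18.5 to 32 CPM and from 10.1 to 16.8 CPM. These 3 of 8 members did not overlap between the groups, nor did 18.2% of all genes tested. Gdf10 (-0.04), Fst (-0.04) and Fstl1 (0.07) did not pass in the summed fibroblasts, and Fstl1 overlapped between groups there, unlike in Fib_2. Nor did Bmp3 (-0.84, SE 0.40, adjusted p = 0.176) or Nog (0.74, SE 0.35, adjusted p = 0.176), whose estimates were larger.

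Whether the hormone effect differed between gates was tested directly in 36 sums of the 9 libraries and 4 gates (12 residual degrees of freedom). Each gate was set against the mean of the other gates, so the 4 differences of a gene cancel by construction. A large difference in 1 gate therefore brings opposite values elsewhere, and the tests are not separate. Here 10 of 28 tests of the members passed: 5 of 7 in Fib_2, where 30.1% of all genes passed, 2 of 7 in Fib_0 (19.3%), 2 of 7 in Fib_1 (3.55%) and 1 of 7 in Fib_3 (4.83%). Relative to the mean of the other gates, the effect in Fib_2 was lower for Bmp2 by -1.59 (SE 0.25, edgeR adjusted p = 8.74e-05), Gdf10 by -1.22 (SE 0.26, adjusted p = 0.00165), Bmp4 by -1.17 (SE 0.26, adjusted p = 0.00203) and Fst by -0.90 (SE 0.16, adjusted p = 0.000316), and higher for Fstl1 by 0.66 (SE 0.09, adjusted p = 1.38e-05). In cells of low stress score, the differences of Bmp4 (-1.05, adjusted p = 0.0782) and Fst (-0.18, adjusted p = 0.614) in Fib_2 did not pass. The effect on Bambi in Fib_2 did not pass this test (-0.35, SE 0.27, adjusted p = 0.363).

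Adding P4 to E2 was compared over 3 libraries of each kind in the same fit. In Fib_2, 2 of 6 members passed, where 1.97% of all genes did. Bmp2 ranged from 10.1 to 22.2 CPM with E2 and from 3.80 to 11.7 CPM with E2 and P4, overlapping by 1 library, and was lower with P4 (-1.32, SE 0.28, edgeR adjusted p = 0.0438). Fstl1 ranged from 1535 to 1777 CPM and from 2267 to 2492 CPM with no overlap, and was higher with P4 (0.54, SE 0.11, adjusted p = 0.0344). Both calls were lost when VCD_E2 (Bmp2 -1.27, adjusted p = 0.186, and Fstl1 0.55, adjusted p = 0.181), VCD_E2_P4 (-0.98, 0.206, and 0.57, 0.128) or VCD_Low_E2 (-1.26, 0.216, and 0.52, 0.176) was left out. Without VCD_High_PBDE_E2_P4 both were lost as well (-1.25, 0.0983, and 0.62, 0.0551), and without VCD_Low_E2_P4 Fstl1 was lost (0.43, 0.191). Neither passed in cells of low stress score (Bmp2 -1.48, adjusted p = 0.108, and Fstl1 0.53, 0.0885) or without the selection against other cell types (-1.002, 0.145, and 0.50, 0.0614). Fstl1 also did not pass with markers the study text does not name (0.54, 0.0711) or with the top 5% of UMIs removed (0.59, 0.0566). The stress genes in Fib_2 separated the same libraries, at 10088 to 13434 CPM with E2 and 7331 to 9040 CPM with E2 and P4. The Fib_3 markers did as well (1304 to 1367 CPM and 986 to 1088 CPM), as did basal epithelial (11.8 to 14.6 CPM and 15.9 to 33.3 CPM), luminal (6.81 to 14.8 CPM and 3.71 to 6.38 CPM), immune (16.1 to 26.6 CPM and 29.6 to 54.5 CPM) and pericyte and smooth muscle markers (4.80 to 7.38 CPM and 8.35 to 14.6 CPM). The part of these lists in the P4 results was not tested. No member passed in Fib_0 (background 0.0852%), Fib_1 (0.545%) or Fib_3 (0.0345%), where 1 of 7, 1 of 7 and 2 of 8 had an unadjusted p under 0.05 and DESeq2 called 0.

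PBDE exposure was compared over 3 libraries at each level. At the high dose no member passed in edgeR in Fib_0 (background 0.194%), Fib_1 (0.305%), Fib_2 (0.111%) or Fib_3 (0.0431%), with 9 of 28 tests at an unadjusted p under 0.05 and 2 called by DESeq2. At the low dose no member passed either, where 0.00826% of genes passed in Fib_1 and 0% in the other gates, with 2 of 28 tests at an unadjusted p under 0.05 and 0 called by DESeq2. The nearest was Gdf10 in Fib_2, higher at the high dose than without PBDE at each hormone state in the values above (1.11, SE 0.21, edgeR adjusted p = 0.0794). It passed when VCD_Vehicle (1.43, adjusted p = 0.0152) or VCD_High_PBDE (1.32, adjusted p = 0.0478) was left out.

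The rest of the pathway was read from lists of 19 other ligands and 15 other antagonists and modulators. Further lists held 14 receptor and coreceptor symbols (13 found in the count matrices), 8 SMADs and their ubiquitin ligases, and 12 target genes. Levels in CPM are not given here for the genes of these lists, so a large log2 difference may rest on few UMIs. With hormone in Fib_2, 2 of 8 other ligands tested rose and 2 fell (median log2 difference 0.17, against -0.02 over all genes), in a gate and comparison where 17.2% of all genes rose and 16.5% fell. Bmp7, an osteogenic ligand, rose by 1.71 (SE 0.27, edgeR adjusted p = 0.000756) and Gdf11 by 0.62, while Gdf15, a stress-induced ligand, fell by 2.47 (SE 0.39, adjusted p = 0.000789) and Inhbb, an activin subunit, by 1.84. Among other antagonists and modulators, 4 of 11 rose and 4 fell (median 0.44). Kcp rose by 2.26 and Bmper, which binds BMPs outside the cell, by 1.47 (SE 0.20, adjusted p = 0.00032), while Nbl1, an antagonist of the DAN family, fell by 1.34.

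Of the receptors tested in Fib_2, 4 of 11 rose and 3 fell with hormone (median 0.17), where 33.7% of all genes passed. The activin receptors Acvr2b (-1.29), Acvr1b (-0.92) and Acvr2a (-0.63) fell and the coreceptor Rgma rose (0.73). None of 7 SMADs and ligases passed (median -0.07). Of 9 targets 2 rose and 3 fell, read against the same 33.7%, with Runx2, an osteoblast transcription factor, higher by 1.46 (SE 0.13, edgeR adjusted p = 1.76e-05), Id1 higher by 1.08 (SE 0.25, adjusted p = 0.00663), and Atoh8 (-1.17) and Id4 (-1.16) lower. Bmp1, a procollagen protease and not a BMP ligand, rose by 0.64 (SE 0.10, adjusted p = 0.000531).

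In Fib_0, 4 of 11 antagonists passed the hormone test, where 10.7% of all genes did. Among them Bmper rose by 1.63 (SE 0.22, edgeR adjusted p = 0.00694), while Crim1 (-0.48) and Nbl1 (-0.29) fell. Of 10 other ligands Gdf6 rose (1.95) and Bmp7 fell (-0.86, SE 0.13, adjusted p = 0.00824), the latter opposite in sign to Fib_2, where the effect exceeded that of the other gates by 2.40 (SE 0.53, adjusted p = 0.00181). Bmp7 was higher in Fib_0 than in the mean of the other gates by 4.64 (SE 0.21). In all fibroblasts summed it fell with hormone (-0.75, SE 0.10, edgeR adjusted p = 0.00571). Of the receptors Rgma (0.53) and Eng (0.42) rose, Smurf1 (-0.47) alone of 8 SMADs and ligases fell, and Id4 (-0.75) alone of 10 targets fell.

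In Fib_1, where 9.11% of all genes passed, Bmper rose (0.86) and Nbl1 fell (-0.50) of 11 antagonists, Inhbb fell (-1.69) of 9 other ligands, Eng rose (0.41) of 11 receptors, and Smad7, an inhibitory SMAD, fell (-0.33). Of 10 targets Dlx3 (2.51), Runx2 (0.63) and Id2 (0.57) rose. In Fib_3, where 2.82% of all genes passed, only Fstl3, a follistatin relative, fell (-0.54, SE 0.12, edgeR adjusted p = 0.0481) among the 48 genes of these lists tested. With P4 added to E2 in Fib_2, where 1.97% of all genes passed, Inhbb was lower (-2.22, SE 0.40, edgeR adjusted p = 0.0215) and Bmp7 higher (1.34, SE 0.22, adjusted p = 0.016) of 8 other ligands, and Id1 was higher (1.31, SE 0.25, adjusted p = 0.0261) of 9 targets. At the high PBDE dose in Fib_1, where 0.305% passed, Id3 was lower (-0.61, SE 0.09, adjusted p = 0.0334) of 10 targets. These calls were not recomputed with libraries left out or in cells of low stress score, where the P4 calls of the members were lost.

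The genes whose levels most resembled each member over the 48 sums of library and gate, leaving out gate markers, were found by Pearson correlation of log2(CPM + 1). The sums share libraries and gates, so the correlations are a description. For Gdf10 they included Gli1 (r = 0.936), a target of hedgehog signaling, and Kitl (0.915). They were for Bmp3 Krtdap (0.967), Wnt10b (0.963) and Sbsn (0.962), and for Fstl1 Fbn1 (0.932), Lsp1 (0.905) and Arpc2 (0.884). Likeness was lower for Bmp2 (Gngt2, 0.897), Bmp4 (Adam33, 0.869), Fst (Ptges, 0.859) and Bambi (Rpl10, 0.836).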

How the data were processed

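Single-cell suspensions of mouse mammary gland were profiled with 10x Genomics 3′ chemistry, and the deposited files hold raw UMI counts per gene and barcode, made by the authors with Cell Ranger 3.1.0 on mm10. Aligned reads were not used here. Cells with at least 500 genes, 1000 UMIs and at most 5% mitochondrial UMIs were kept. Cells were then required to have 0 UMIs of Epcam, Krt14, Ptprc, Cd52, Pecam1 and Cspg4 and a fibroblast score (mean log-normalized level of 6 fibroblast genes) of at least 2. Each cell was given to the gate with the best mean z-score of 8 markers if that was above 0 and at least 0.3 above the next. This scoring rule was set after seeing the score distributions, and no doublet removal was applied.

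Counts were summed per gate and library and tested with edgeR 4.0.16 in R 4.3.3 (filterByExpr, TMM, quasi-likelihood, Benjamini-Hochberg over all genes tested, threshold 0.05). The SE was the log2 difference divided by the square root of F. DESeq2 1.42.0 was an alternative. The scripts were tested on simulated data. Members, gene lists and tests were chosen with earlier results of these data known. All 9 members are named, and of the pathway lists at most the 4 largest changes past the threshold per gate and comparison, with the 3 most similar genes for members of at least 10 CPM. A few genes that this rule names are not reported here. Depth per gate and library ranged from 1511911 to 27684187 UMIs. Of the 48 gate sums, no sample was dropped or imputed. Labels name a HiSeq and the methods a NovaSeq as sequencer.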

Additional observations from a re-analysis of the deposited data

Results flagged for a closer look

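Among 25 groups of 6 hormone-treated libraries examined (1 per gene and gate), 4 had a library far from the other 5. The rule marks about 1 in 20 groups when the 6 values come from 1 normal population. Here the 6 libraries differ in treatment and the groups reuse the same libraries, so the 4 are not set against that rate. In each of the 4 groups the library was VCD_High_PBDE_E2. It held Gdf10 at 18.9 CPM and Bmp4 at 30.0 CPM in Fib_0, both above the other 5 libraries, Bmp4 at 23.5 CPM in Fib_3, also above them, and Fstl1 at 860.1 CPM in Fib_3, below them. Without this library, Bmp4 in Fib_3 passed the hormone test (-1.31, edgeR adjusted p = 0.00867).

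The hormone effect differed between gates in 10 tests of an interaction (log2 effect in the gate minus the mean of the other 3, edgeR adjusted p under the threshold). In Fib_2 these were Bmp2 (-1.59), Gdf10 (-1.22), Bmp4 (-1.17), Fst (-0.90) and Fstl1 (0.66). In Fib_0 they were Bmp4 (0.84, SE 0.19, adjusted p = 0.00538) and Fstl1 (-0.33, SE 0.08, adjusted p = 0.0104). In Fib_1 they were Fstl1 (-0.46, SE 0.08, adjusted p = 0.00466) and Gdf10 (1.01, SE 0.25, adjusted p = 0.0305), and in Fib_3 Bmp2 (0.93, SE 0.24, adjusted p = 0.0302). The differences of a gene over the gates cancel by construction, so values outside Fib_2 can mirror those in Fib_2. Within its own gate, the hormone effect passed for Bmp4 in Fib_0 (-0.85). That test did not pass for Fstl1 in Fib_0 (-0.07) or Fib_1 (-0.17), Gdf10 in Fib_1 (0.48) or Bmp2 in Fib_3 (-0.13). The 5 interaction calls in Fib_2 and that of Bmp4 in Fib_0 were kept with each library left out. In cells of low stress score 3 of these 6 were kept (Bmp2, Gdf10 and Fstl1 in Fib_2), and Bmp4 (-1.05, adjusted p = 0.0782) and Fst (-0.18, adjusted p = 0.614) in Fib_2 and Bmp4 in Fib_0 (0.71, adjusted p = 0.105) did not pass.

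The other 4 were not kept with each library left out. Gdf10 in Fib_1 was lost without VCD_Vehicle (0.60, adjusted p = 0.368), VCD_E2 (0.109), VCD_E2_P4 (0.118), VCD_Low_PBDE (0.0912), VCD_Low_E2 (0.0993) or VCD_High_PBDE_E2_P4 (0.113). Bmp2 in Fib_3 was lost without VCD_Vehicle (0.93, adjusted p = 0.125), VCD_E2_P4 (0.0899), VCD_Low_PBDE (0.17) or VCD_Low_E2 (0.116). Fstl1 was lost in Fib_0 without VCD_Low_PBDE (-0.28, adjusted p = 0.144) or VCD_High_PBDE (0.0905), and in Fib_1 without VCD_Vehicle (-0.38, adjusted p = 0.106) or VCD_Low_PBDE (0.0833).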

How the results depend on the processing

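Treatment groups could not be paired by replicate because each group holds 1 library, so the groups share fewer than 2 replicate numbers. PBDE level was a term of the treatment fits and library a term of the fits across gates. Over the members and gates, the count of hormone calls was 10, with 3 when all fibroblasts were summed, which leaves 1 test per gene, and 9 to 13 with each library left out. The count of P4 calls was 2, with 4 without a filter on low counts, 1 with markers the study text does not name, 0 without negative selection, 1 with the top 5% of UMIs removed, 0 in cells with a stress score of at most 2, and 0 to 2 with each library left out. The count of PBDE calls was 0, with 2 by DESeq2, 3 without the filter, 1 with the other markers, 1 with a stricter gate margin, 1 in cells of low stress score, 1 with VCD_Vehicle_NormEnv added to the fit, and 0 to 1 with each library left out. The count of interaction calls was 10, with 4 in cells of low stress score and 6 to 11 with each library left out, the lowest without VCD_Low_PBDE. The count of 20 calls between gates stayed at 17 to 25. The cause of these shifts was not tested. The share of all genes passing under the same alternative is not set beside these counts. All-gene counts varied too, as given below, so whether a shift is particular to the members cannot be told. The Bmp3 difference by PBDE level in Fib_0 ranged from -1.68 to -1.26 at low PBDE and from -2.02 to -1.61 at high PBDE with each hormone-treated library left out, and none of these passed. No value of a member called in the fit reported changed sign under an alternative.

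Counts over all genes also varied. Hormone calls ranged over alternatives from 200 to 1751 in Fib_0 (1385 in the fit reported), 479 to 1457 in Fib_1 (1103 in the fit reported), 2060 to 4272 in Fib_2 (3946 in the fit reported), 32 to 807 in Fib_3 (327 in the fit reported). Interaction calls ranged from 958 to 2372 in Fib_0 (2337 in the fit reported), 68 to 608 in Fib_1 (429 in the fit reported), 1666 to 3798 in Fib_2 (3641 in the fit reported), 137 to 649 in Fib_3 (584 in the fit reported), P4 calls from 0 to 116 in Fib_0 (11 in the fit reported), 0 to 381 in Fib_1 (66 in the fit reported), 35 to 752 in Fib_2 (230 in the fit reported), 0 to 137 in Fib_3 (4 in the fit reported), calls at the high PBDE dose from 1 to 326 in Fib_0 (25 in the fit reported), 1 to 331 in Fib_1 (37 in the fit reported), 1 to 478 in Fib_2 (13 in the fit reported), 2 to 275 in Fib_3 (5 in the fit reported) and at the low dose from 0 to 3 in Fib_0 (0 in the fit reported), 0 to 26 in Fib_1 (1 in the fit reported), 0 to 45 in Fib_2 (0 in the fit reported), 0 to 28 in Fib_3 (0 in the fit reported). In the fit reported, Grem1 did not pass the filter on low counts in any treatment comparison and was not tested.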

Other observations

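Few cells of other types were captured, and their values, pooled over the 12 libraries with exact 95% Poisson intervals for counting error only, are given without a test. These cells were named before the selection against other cell types and doublets were not removed, so they may hold fibroblast RNA. Bambi was higher in 113 endothelial-like cells (124 CPM, interval 109 to 141) than in any fibroblast gate, and 53.1% of them held a UMI. In 13 basal epithelial-like cells Bambi was 123 CPM (81.1 to 179) and Fst 925 CPM (802 to 1062), against 371 CPM of Fst in Fib_1, the highest fibroblast gate. Bmp4 was 13.9 CPM (9.16 to 20.2) in endothelial-like cells and 11.1 CPM (8.34 to 14.6) in luminal-like epithelial cells, within the range of the fibroblast gates. Fstl1 was 241 CPM (220 to 264) in endothelial-like cells, against 1230 CPM in Fib_3, the lowest fibroblast gate. No Grem1 or Nog UMI was found in the immune-like cells, which allows up to 0.0431 CPM at 3 counts.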
